A study of Xenopus laevis with 36 samples.

Results

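RNA from skin wounds of juvenile *Xenopus laevis* was compared between wounds given recombinant CSF1 (rCSF1) and wounds given a recombinant control (rctrl), both taken at 7 days post wounding (dpw). The 2 groups held 6 libraries each, 12 of the 36 libraries of the series, and every gene of the deposited count table entered the comparison. All frogs were wild type, received a 2 mm biopsy punch wound in the dorsal skin, and were injected under the skin near the wound at 3 dpw with 1 µg of rCSF1 in 20 µL of buffer or with an equal volume of rctrl. The rctrl was made by taking an empty expression vector through the same insect cell expression and purification, so that both groups received an insect cell preparation and differed in the presence of CSF1. The other libraries came from wounds given rIL34 at 7 dpw and from the same 3 treatments at 14 dpw. The whole piece of wounded skin was lysed, so each library mixes epidermis, glands, dermis, vessels, nerves, pigment cells and leukocytes, and in such bulk samples fewer cells of a type and less RNA per cell cannot be told apart. The labels do not say whether the 6 libraries of a group came from separate frogs, and the p-values below measure only the spread between these libraries.

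CSF1 is a secreted growth factor that binds the receptor CSF1R on cells of the macrophage lineage, where it drives survival, growth and differentiation. IL34 is a second ligand of the same receptor, and in *X. laevis* the 2 cytokines give rise to macrophages that differ in form and function. Frog skin heals by rapid closure of the epidermis over the wound, followed by leukocyte infiltration, growth of new tissue and rebuilding of the dermis and its glands. In that setting macrophages take up debris and secrete cytokines, proteases and growth factors that act on keratinocytes, fibroblasts and vessels. *X. laevis* carries 2 copies of many genes, one on each of its subgenomes, written .L and .S. The copies are similar in sequence, so that reads can be assigned to the wrong one, and each copy is given here with its own value.

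Library depth was alike in the 2 groups. Total counts ranged from 22435798 to 32997060 in the rCSF1 group (median 28710555) and from 24605315 to 29280860 in the rctrl group (median 28877772). The rCSF1 libraries, however, did not form 1 cluster. In a principal component analysis of the 12 libraries, the first component held 50.1% of the variance, and rCSF1 replicates 2 and 5 lay at 185.3 and 151.2 on it while the other 4 rCSF1 libraries lay between -44.8 and 43.4 and the rctrl libraries between -73.6 and -36.3. Both of these libraries carry the same label as the other 4, so they were kept, and most counts and fold changes are also given without them. The share of counts on ribosomal RNA genes was 4.17% ± 1.46 (SD, n = 6) in rCSF1 and 1.82% ± 0.24 (SD, n = 6) in rctrl wounds, and the groups did not overlap (exact permutation test, two-sided, p = 0.0022, the smallest this design allows, 0.0065 adjusted over 3 shares). The share on genes of the mitochondrial genome was 1.12% ± 0.18 in rCSF1 against 1.75% ± 0.56 in rctrl wounds (SD, n = 6 each, exact permutation p = 0.019, adjusted 0.029, and p = 0.057 without replicates 2 and 5). The 20 most counted genes took 13.58% and 13.03% of counts, a difference within the spread of the libraries (exact permutation p = 0.74, n = 6 each). Their part in the differences between the groups was not tested.

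**Figure D1:**
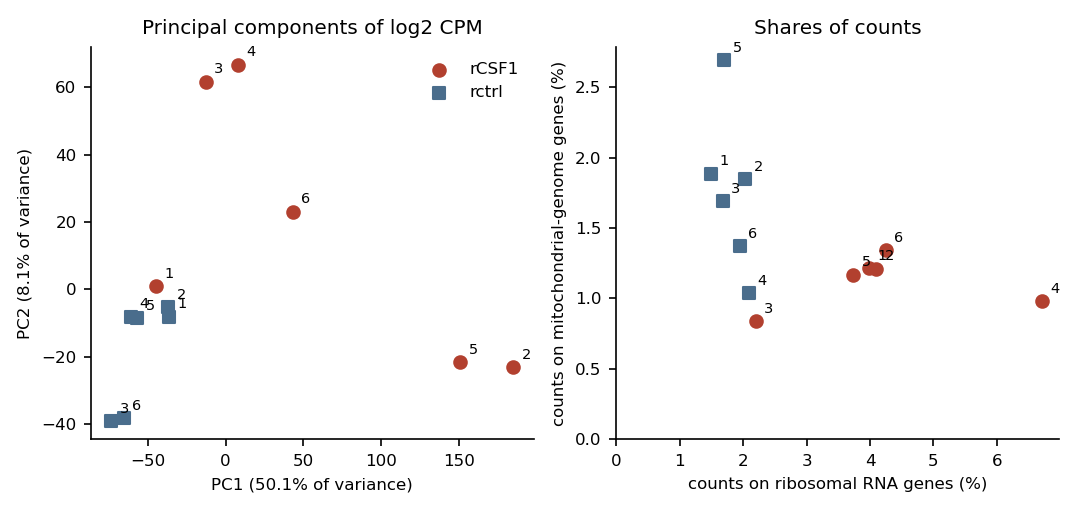
Left, the first and second principal components of log2-scaled counts in the 12 libraries, with the replicate number beside each point. Right, the share of counts on ribosomal RNA genes (x axis, %) and on mitochondrial-genome genes (y axis, %). Circles are rCSF1 and squares rctrl libraries, and rCSF1 replicates 2 and 5 lie at 185.3 and 151.2 on the first component, far from all other libraries.

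Differences were tested with edgeR's quasi-likelihood test on the counts of all 36 libraries, and a gene was called when its p-value, adjusted by the Benjamini-Hochberg method over the 28225 genes tested, was under 0.05. Levels are given as counts-per-million (CPM), scaled by the trimmed mean of M values (TMM), and differences as log2 fold changes of rCSF1 over rctrl, where 1 is a doubling. Of the genes tested, 5766 were higher in rCSF1 than in rctrl wounds (20.4%) and 3982 lower (14.1%), together 34.5%. Without replicates 2 and 5, 2034 of 28158 genes were higher (7.22%) and 1601 lower (5.69%). Of the genes higher in all 12 libraries, 1966 (34.1%) were higher in both comparisons, and of the lower genes 1458 (36.6%) were lower in both. No gene was called in opposite directions. All 6 rCSF1 libraries lay above all 6 rctrl libraries for 1059 genes (3.75% of those tested) and below them for 759 (2.69%). Fits that estimate the spread from fewer libraries called fewer genes, with 3401 higher and 1695 lower in a fit to the 12 libraries alone. The calls made with all 36 libraries in the fit and not with 12 included those of *cdh1.L*, *cldn17.3.L*, *cxcl8.L*, *csf1.S*, *lum.L*, *lum.S*, *cdh5.S* and *ATP6* (adjusted p from 0.051 to 0.097).

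The size of most of the large rises rested on replicates 2 and 5. A log2 fold change over 2 was reached by 452 of the higher genes, and in 412 of these the highest levels were those of replicates 2 and 5. Without them, 61 genes passed that size. Among the falls, 100 genes had a log2 fold change under -2, replicates 2 and 5 were the lowest libraries in 31 of them, and 48 genes passed that size without them. The median log2 fold change over all genes tested was -0.03 with all libraries and -0.05 without replicates 2 and 5.

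**Figure D2:**
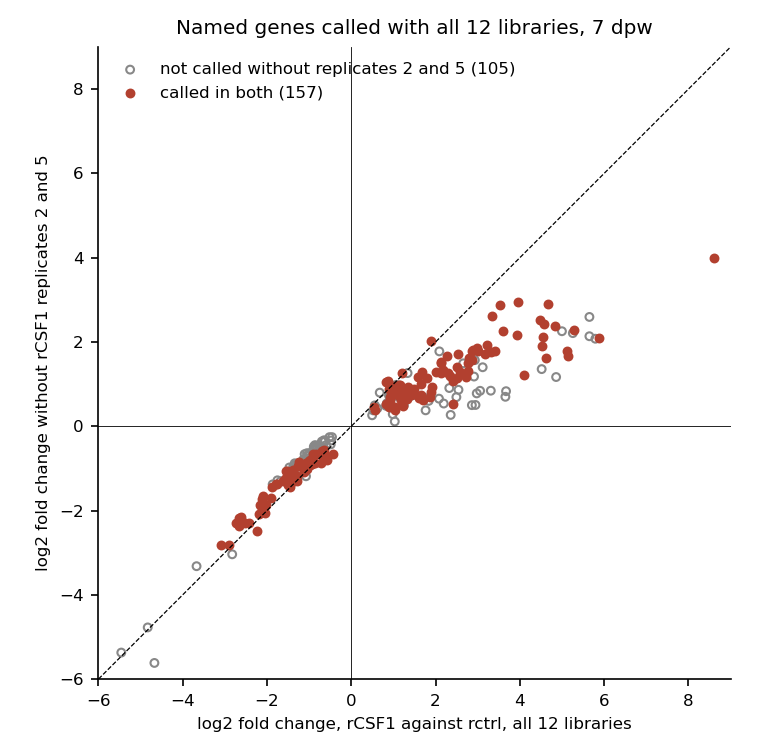
Log2 fold change of rCSF1 over rctrl wounds for the named genes called with all 12 libraries (x axis), against the same value without rCSF1 replicates 2 and 5 (y axis). Filled points are the 157 genes called in both comparisons and open points the 105 genes called only with all libraries. The dashed line marks equal values. Falls lie near it, and most rises over 2 lie below it.

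The gene with the largest rise that was called in both comparisons was *noxo1.1.L* (chr9_10L:121647723-121658912), whose mammalian counterpart organizes the NADPH oxidase NOX1 of epithelia. Its level in the 6 rCSF1 libraries was 0.0801 CPM at the lowest, 19.4 at the median and 998 at the highest, against 0.0342, 0.378 and 2.13 CPM in rctrl wounds. Replicates 2 and 5 held 998 and 379 CPM, replicate 6 held 34.3 CPM, and replicates 1 and 3 lay within the rctrl range. The log2 fold change was 8.601 ± 1.547 (SE, adjusted p = 1.0e-04), and 3.99 (adjusted p = 0.025) without replicates 2 and 5. This call was lost when libraries were weighted by their quality. The next in size was *olfm4.L*, an olfactomedin that in mammals marks a subset of neutrophils and gut epithelium, with 3.402, 70.04 and 1880 CPM against 3.43, 8.53 and 14.2 CPM (log2 fold change 5.87 ± 1.02, adjusted p = 7.5e-05, and 2.09 with adjusted p = 0.035 without replicates 2 and 5). The groups overlapped for both genes.

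Another 4 of the 15 largest such rises had no overlap between the groups. The inhibitor of NF-kB signalling *tnip3.L* (chr1L:75671000-75721819) held 3.80, 10.3 and 316 CPM in rCSF1 libraries against 1.71, 2.30 and 3.12 CPM in rctrl libraries (log2 fold change 5.13 ± 0.81, adjusted p = 2.8e-05, and 1.66, adjusted p = 0.012, without replicates 2 and 5). The sodium channel subunit gene *scnn1gl.L* held 0.804, 2.09 and 13.4 CPM against 0.0707, 0.134 and 0.513 CPM (log2 fold change 4.67 ± 0.66, and 2.91 without replicates 2 and 5). The cytokine gene *il1b.L* and the keratin gene *krt61.L* are described with their groups below. The other 9 rose in both comparisons with overlapping groups. They were the prostaglandin transporter *slco2a1.S* (5.28), *tlrs5.L* (5.12), the small GTPase *rab6b.S* (4.82), the uridine phosphorylase *upp2.L* (4.62), *clca3p.L* of the calcium-activated chloride channel regulators (4.58), the transmembrane protease *tmprss2.1.S* (4.55), the hormone stanniocalcin *stc1.L* (4.47), the costimulatory receptor *tnfrsf9.L* (4.10) and *ly6e.L* (3.93), with log2 fold changes in parentheses. Without replicates 2 and 5 their log2 fold changes ran from 1.23 for *tnfrsf9.L* to 2.53 for *stc1.L*. Of the rises chosen by size alone, *nppb.S*, which encodes a natriuretic peptide, *csf3.L*, the neutrophil growth factor G-CSF, the collagenases *mmp8.S* and *mmp1.L*, and the heme carrier *hpx.L* had log2 fold changes of 5.26 to 6.47. *nppb.S* was too low to be tested without replicates 2 and 5, and the other 4 were no longer called (adjusted p from 0.11 to 0.29).

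Many genes of the cell junctions that hold the epidermis together were called higher in rCSF1 wounds. Of 29 desmosome and adherens junction genes tested, 21 were higher (72.4%, against 20.4% of all genes) and none lower by edgeR, by DESeq2 or at an unadjusted p under 0.05. In the fit to the 12 libraries alone 13 were higher, and 13 without replicates 2 and 5 (against 7.22%). Of 33 claudin and tight junction genes, 19 were higher and 2 lower (57.6% and 6.06%), and 16 were higher and none lower without replicates 2 and 5. The medians of their log2 fold changes were 0.89 and 0.97, against -0.03 over all genes. All 6 rCSF1 libraries lay above all 6 rctrl libraries for 4 desmosome and 3 claudin genes. The list means of rCSF1 replicates 1 and 3 lay within the rctrl range. They differed from the rctrl mean by 0.442 and 0.423 (desmosome) and 0.119 and 0.155 (claudin), against 0.462 in rctrl replicate 2 and 0.348 in rctrl replicate 4. In rCSF1 replicates 2, 4, 5 and 6 the differences were 0.817 to 1.632 and 0.635 to 1.084.

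The plakoglobin gene *jup.L* (chr9_10L:954850-988459), which ties cadherins to the cytoskeleton in both kinds of junction, held 291, 581 and 1326 CPM in rCSF1 libraries and 88.1, 125 and 242 CPM in rctrl libraries. All 6 rCSF1 libraries were above all 6 rctrl libraries, and the log2 fold change was 2.28 ± 0.28 (adjusted p = 4.1e-06, and 1.67, adjusted p = 1.0e-04, without replicates 2 and 5). The desmosomal plakophilin *pkp3.S* did not overlap either (log2 fold change 1.79, and 1.14 without replicates 2 and 5). E-cadherin, the adhesion receptor of adherens junctions, rose in both copies, with 171, 611 and 2800 CPM for *cdh1.S* against 95.5, 158 and 215 CPM. Its log2 fold change was 2.78 (1.32 without replicates 2 and 5, adjusted p = 0.0043). That of *cdh1.L* was 1.13, and 0.69 with adjusted p = 0.12 without replicates 2 and 5. Desmoplakin, the anchor of keratin filaments, was not called, with log2 fold changes of -0.23 for *dsp.L* (adjusted p = 0.47) and 0.16 for *dsp.S* (adjusted p = 0.63).

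Claudins seal the space between epithelial cells. *cldn7.L* (chr3L:161077732-161082547) held 33.7, 130 and 565 CPM in rCSF1 and 9.13, 18.5 and 27.7 CPM in rctrl libraries, and *cldn7.S* held 34.7, 88.7 and 309 CPM against 10.8, 18.4 and 24.2 CPM. Neither copy overlapped between the groups, with log2 fold changes of 3.60 ± 0.46 (2.25 without replicates 2 and 5, adjusted p = 1.9e-04) and 2.90 ± 0.38 (1.82 without them). The tight junction scaffold cingulin, *cgn.L*, rose by 2.13 on the log2 scale (1.52 without replicates 2 and 5). The 2 claudin genes that were lower, *cldn17.1.L* and *cldn17.3.L*, were high in rctrl replicate 4. The highest rctrl level of *cldn17.1.L* was 47.4 CPM and the median 0.618 CPM, and its adjusted p was 0.067 without that library. *cldn17.3.L* was no longer called without rctrl replicate 4 or without rCSF1 replicate 2 or 5 (log2 fold change -3.67 with all libraries, and -2.22, -3.55 and -3.50 without each of these).

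Connexins form the channels of gap junctions. Of 26 tested, 8 were higher and 2 lower (30.8% and 7.69%, against 20.4% and 14.1% of all genes). Without replicates 2 and 5 the counts were 4 and 1. *gjc1.L* (log2 fold change 2.14, and 1.27 without replicates 2 and 5), *gjb3l.S* (3.33 and 2.63) and *gja7.S* (2.77 and 1.498) were above rctrl in all 6 libraries, while *gja1.L*, which encodes connexin 43, was lower, with 5.89, 7.37 and 8.44 CPM against 8.37, 19.2 and 22.1 CPM (log2 fold change -1.28, and -1.29 without replicates 2 and 5).

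**Figure D3:**
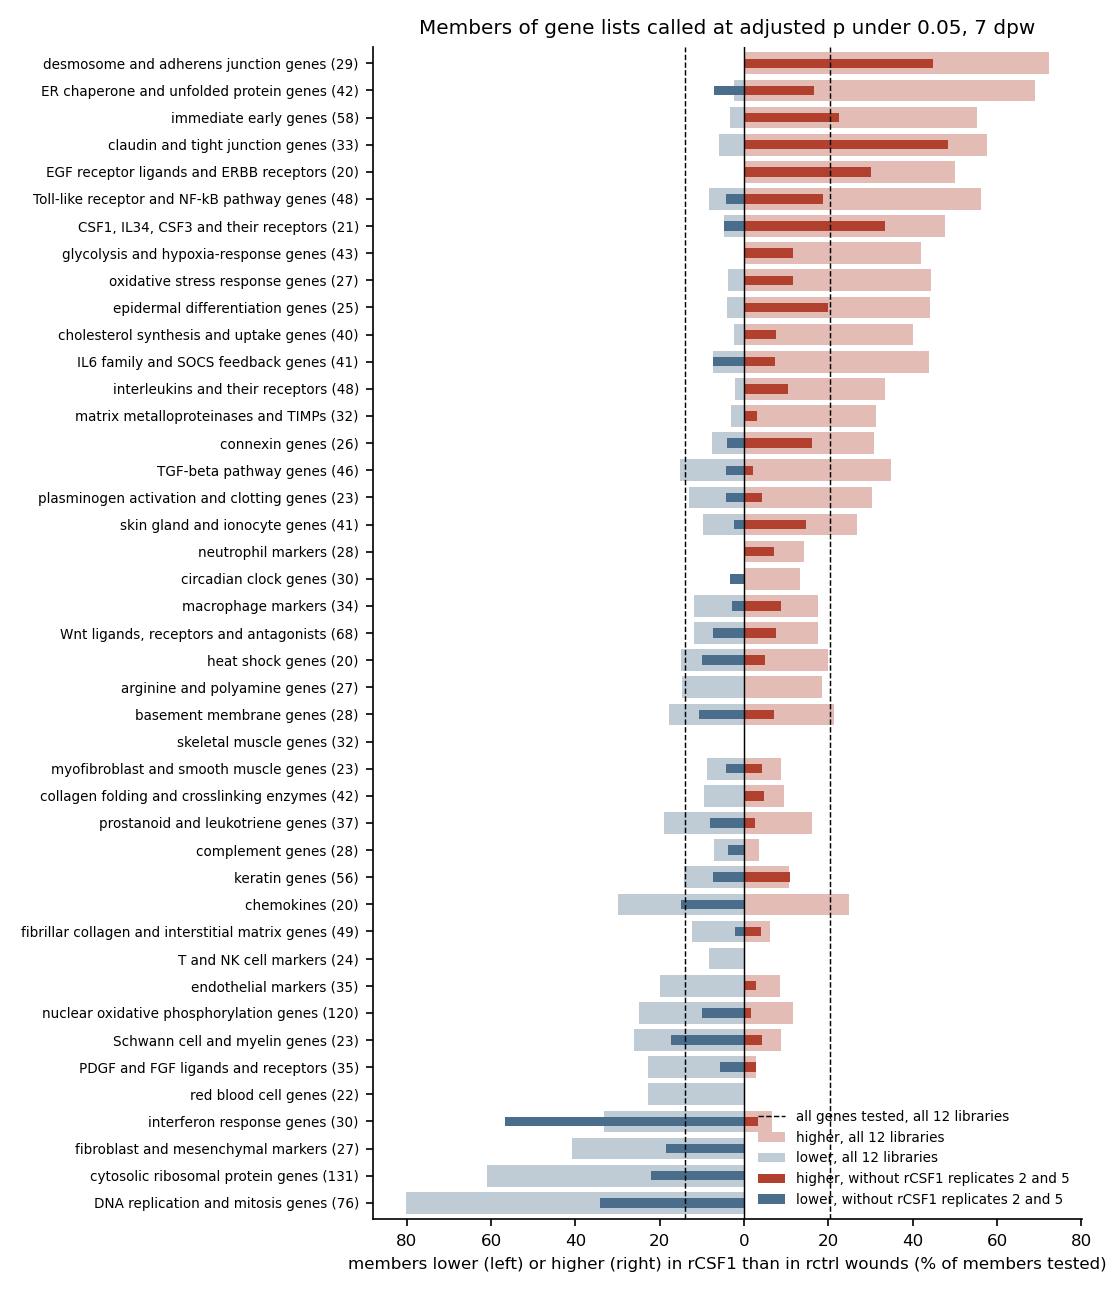
Percentage of the tested members of 43 gene lists with at least 20 members tested that were lower (left) or higher (right) in rCSF1 than in rctrl wounds. Wide pale bars are all 12 libraries, narrow dark bars leave out rCSF1 replicates 2 and 5, dashed lines mark 14.1% and 20.4% of all genes tested, and the number tested stands in parentheses. Junction lists lie near the top, and DNA replication and mitosis genes, ribosomal protein genes and fibroblast markers at the bottom.

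Keratins, the filament proteins of the epidermis, were called in both directions. Of 56 tested, 6 were higher and 8 lower (10.7% and 14.3%, against 20.4% and 14.1% of all genes), with 6 and 4 without replicates 2 and 5. Leaving out rCSF1 replicate 2, rCSF1 replicate 5 or rctrl replicate 3 alone left 5 lower in each case. *krt17.L* (chr9_10L:1091999-1095371), whose mammalian counterpart appears in keratinocytes activated by wounding, held 110, 307 and 809 CPM in rCSF1 libraries and 12.04, 27.2 and 70.5 CPM in rctrl libraries. The groups did not overlap, and the log2 fold change was 3.53 ± 0.40 (adjusted p = 3.3e-06, and 2.87, adjusted p = 2.7e-05, without replicates 2 and 5). *krt61.L* (chr2L:156273189-156277623) held 194, 530 and 1802 CPM against 24.7, 50.7 and 71.6 CPM, again with no overlap (log2 fold change 3.96 ± 0.54, and 2.95 without replicates 2 and 5), and its copy *krt61.S* rose by 1.88 on the log2 scale (2.01 without them).

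Close to *krt61.L* on the same chromosome, *krt60.L* (chr2L:156292581-156302704) moved the other way. It held 52.99, 76.6 and 115 CPM in rCSF1 and 131, 203 and 371 CPM in rctrl libraries, with no overlap (log2 fold change -1.49 ± 0.25, and -1.39, adjusted p = 0.0016, without replicates 2 and 5). *krt78.3.L* (-1.34, and -1.18 without replicates 2 and 5) and *krt78.4.L* (-1.40 and -1.32) were lower too, and for the first of these all 6 rCSF1 libraries were below all rctrl libraries.

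Genes of the basal epidermis and hemidesmosomes were higher in 10 of 15 cases and lower in none (66.7% against 20.4%), and 7 were higher without replicates 2 and 5. They included both copies of *tp63*, the transcription factor that maintains basal keratinocytes, with 230, 559 and 1202 CPM for *tp63.S* against 140, 181 and 291 CPM (log2 fold change 1.65 ± 0.28) and 1.36 for *tp63.L*. Without replicates 2 and 5 the values were 1.01 and 0.84 (adjusted p = 0.0049 for both). Of 25 epidermal differentiation genes, 11 were higher and 1 lower (44.0% and 4.0%, and 5 and none without replicates 2 and 5), among them the transcription factors *klf5.L* (2.005, and 1.28 without them) and *grhl1.L* (1.35 and 0.93).

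EGF receptor ligands stimulate keratinocyte growth and migration. Of 20 ligand and ERBB receptor genes, 10 were higher and none lower, with 6 and none without replicates 2 and 5. *tgfa.L* (chr3L:129512294-129551387), which encodes transforming growth factor alpha, held 13.6, 41.2 and 154 CPM against 5.24, 8.12 and 9.71 CPM, with no overlap (log2 fold change 2.98 ± 0.40, and 1.86, adjusted p = 4.1e-04, without replicates 2 and 5). Its copy *tgfa.S* rose by 3.17 and the receptor *erbb2.L* by 1.89 on the log2 scale (1.71 and 0.82 without them).

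Among 41 genes of skin glands and ionocytes, 11 were higher and 4 lower (26.8% and 9.76%, against 20.4% and 14.1% of all genes). The higher count was 6 without rCSF1 replicate 2. The lower count was 1 without rCSF1 replicate 2 or 5 or rctrl replicate 2 or 4, and 2 without rctrl replicate 5. Without replicates 2 and 5, 6 were higher and 1 lower. The membrane mucin *muc1.S* (2.99, and 1.81 without replicates 2 and 5) and the sodium channel subunit *scnn1a.L* (2.40 and 1.07) rose. The anion exchanger *slc26a4.1.L* of ionocytes fell from a median of 1.162 CPM to 0.238 CPM (log2 fold change -2.20, and -2.08 without replicates 2 and 5). Other ionocyte genes were called higher. For *atp6v1a.S* no alternative lost the call. *atp6v1b1.L* was highest in rCSF1 replicates 4 and 6 (47.2 and 29.7 CPM). Its call held without replicates 2 and 5 but was lost in 8 alternatives. *foxi1.S* was not called without replicates 2 and 5, and its copy *foxi1.L* was not called with all libraries. The antimicrobial peptide genes of the granular glands were high in both groups and spread widely, with 41.9, 386 and 699 CPM for *pgla.L* in rCSF1 and 146, 661 and 1233 CPM in rctrl libraries (adjusted p = 0.16), and adjusted p = 0.33 for *magainins.L*.

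Cytokine and NF-kB signalling genes were higher as well, with larger fold changes that leaned on replicates 2 and 5. Of 48 Toll-like receptor and NF-kB pathway genes, 27 were higher and 4 lower (56.2% and 8.33%, against 20.4% and 14.1% of all genes), and 9 and 2 without replicates 2 and 5 (18.8% and 4.17% of the members against 7.22% and 5.69% of all genes). Of 48 interleukin and interleukin receptor genes, 16 were higher and 1 lower (33.3% higher against 20.4%), and 5 and none without them (10.4% against 7.22%). Of 58 immediate early genes, which respond to growth factor and stress signals within minutes, 32 were higher and 2 lower (55.2% and 3.45%), and 13 and none without them (22.4% higher against 7.22%).

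*il1b.L* (chr3L:133689135-133695788), the inflammatory cytokine interleukin 1 beta, held 7.13, 24.2 and 320 CPM in rCSF1 and 3.57, 4.36 and 5.09 CPM in rctrl libraries. Replicates 2 and 5 held 320 and 213 CPM, the other 4 lay between 7.13 and 30.1 CPM, and all 6 were above the highest rctrl library. The log2 fold change was 4.53 ± 0.71 (adjusted p = 2.8e-05), and 1.90 (adjusted p = 0.0076) without replicates 2 and 5. The copy *il1b.S* rose by 3.12, and by 1.40 with adjusted p = 0.057 without replicates 2 and 5. Receptor genes with no overlap were *il10rb.L*, a chain shared by receptors of the IL10 family (log2 fold change 3.01, and 1.78 without replicates 2 and 5), and *il17rd.S* (1.04 and 0.96).

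In the NF-kB list, the inhibitor *nfkbie.L* (1.22, and 0.87 without replicates 2 and 5) and the kinase *ikbkb.L*, which releases NF-kB (1.18 and 0.63), were above rctrl in all 6 libraries. Some Toll-like receptors, which sense microbial molecules, were among the lower genes of the list. *TLR3*, the receptor for double-stranded RNA, held 14.5, 18.04 and 19.96 CPM against 28.8, 32.8 and 37.8 CPM with no overlap (log2 fold change -0.90 ± 0.15, and -0.84, adjusted p = 0.0011, without replicates 2 and 5), and *tlr21.L* held 0.511, 3.28 and 6.44 CPM against 6.66, 12.5 and 17 CPM (log2 fold change -1.88, and -1.45 without them). *tlr1.L*, a receptor for lipopeptides, held 6.39, 12.3 and 17.5 CPM against 13.5, 26.7 and 63.2 CPM (log2 fold change -1.36, and -1.11 with adjusted p = 0.051 without them). The soluble Toll-like receptor gene *tlrs5.L*, named above among the largest rises, went the other way. Its log2 fold change was 5.12, and 1.78 with adjusted p = 0.032 without replicates 2 and 5. Immediate early genes that rose in both comparisons included *ier2.S* (1.57, and 1.18 without replicates 2 and 5), *ier2.L* (1.68 and 1.28) and the ERK phosphatase *dusp5.L* (2.85 and 1.58). The tumour necrosis factor gene *tnf.S* fell, with 6.71, 9.73 and 12.99 CPM against 15.1, 18.7 and 28.3 CPM and no overlap (log2 fold change -0.98 ± 0.23, adjusted p = 0.0012, and -0.91, adjusted p = 0.017, without replicates 2 and 5).

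**Figure D4:**
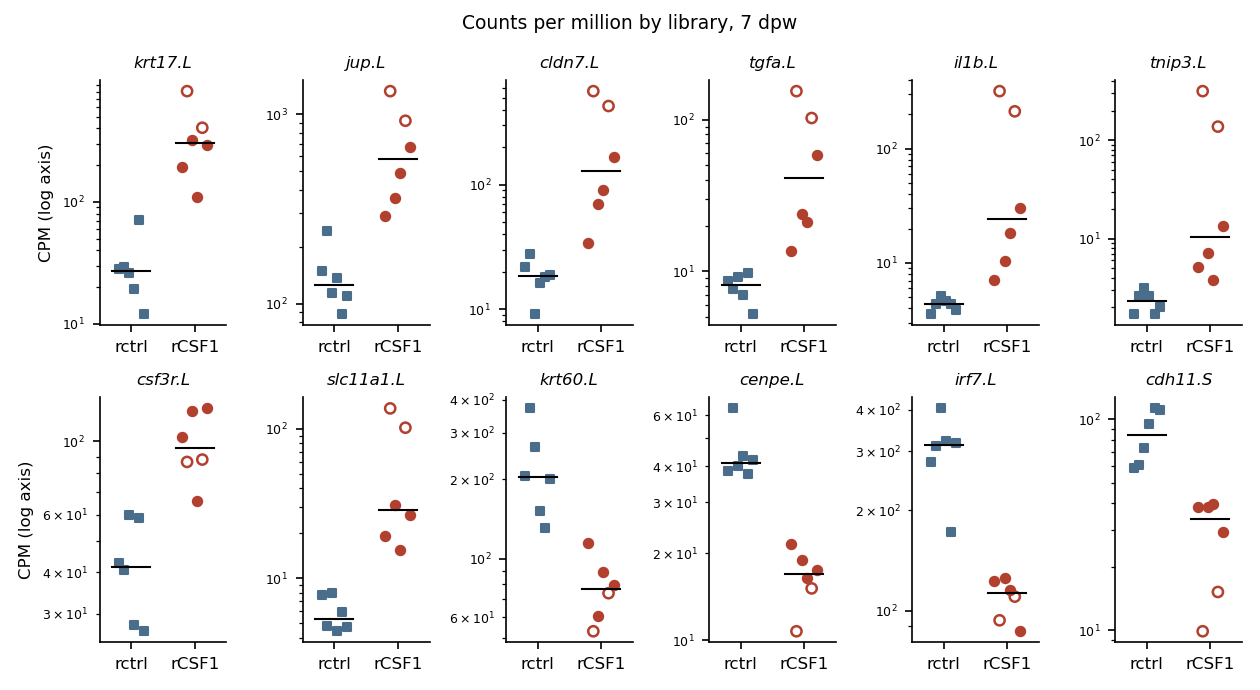
CPM of 12 genes in each library at 7 dpw, on log axes that differ between panels. Squares are rctrl libraries, filled circles rCSF1 replicates 1, 3, 4 and 6, open circles rCSF1 replicates 2 and 5, and bars are medians. None of the 12 genes overlaps between the groups. Replicates 2 and 5 are the highest libraries for il1b.L and tnip3.L and lie among the others for csf3r.L and irf7.L.

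Chemokines, which attract leukocytes, split by member. Of 20 tested, 5 were higher and 6 lower, and none and 3 without replicates 2 and 5. The neutrophil attractants *cxcl8.L* (log2 fold change 2.36, adjusted p = 0.0022), *cxcl8.S* (2.08), *cxcl2.L* (4.52) and *cxcl2.S* (4.86) were high in replicates 2 and 5 and were not called without them (0.27, 0.66, 1.36 and 1.17, adjusted p from 0.084 to 0.75). For *cxcl8.L* the 6 levels were 15.9 CPM at the lowest, 23.5 at the median and 260 at the highest, against 5.48, 12.1 and 36.6 CPM. The attractants of lymphocytes were lower. *cxcl13.S*, which in mammals guides B cells, held 0, 0.267 and 1.60 CPM against 1.54, 3.02 and 8.31 CPM (log2 fold change -3.10, and -2.83, adjusted p = 0.039, without replicates 2 and 5), *cxcl13.L* had values of -1.90 and -1.70, and *ccl5.S*, an attractant of T cells, one of -1.46 (-1.12, adjusted p = 0.016, without them). Of 17 chemokine receptors, 1 was higher and 5 lower (3 lower when rCSF1 replicate 2, rCSF1 replicate 6 or rctrl replicate 6 was left out, and 1 without replicates 2 and 5), and *cxcr6.L*, a receptor of T and NK cells in mammals, was the one lower in both comparisons among those named (-0.997 and -0.828). The receptor shares were 5.88% higher and 29.4% lower with all libraries.

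The genes of the CSF axis itself gave no rise of the receptor. *CSF1R*, which defines macrophages here and is the receptor of the injected protein, held 57.5, 148 and 330 CPM in rCSF1 and 184, 219 and 261 CPM in rctrl libraries (log2 fold change -0.34 ± 0.30, adjusted p = 0.40, and -0.05, adjusted p = 0.93, without replicates 2 and 5). Since CSF1 was given as protein, transcripts of *csf1* do not check the labels. *csf1.S* held 15.8, 19.99 and 27.2 CPM against 23.6, 27.5 and 33.5 CPM (log2 fold change -0.42 ± 0.16, adjusted p = 0.039, and -0.66, adjusted p = 0.0082, without replicates 2 and 5). Its adjusted p lay between 0.053 and 0.10 when rCSF1 replicate 3, 4 or 6 or rctrl replicate 1, 2 or 3 was left out. *il34.L* (0.07, adjusted p = 0.89) and *il34.S* (-0.48, adjusted p = 0.20) were not called. Of the 21 genes of the list, 10 were higher and 1 lower (47.6% and 4.76%, against 20.4% and 14.1% of all genes), 7 and 1 without replicates 2 and 5. The receptor of G-CSF and the transcription factor *cebpb*, which acts in granulocyte and macrophage differentiation and in epithelia, were among them. *cebpb.S* held 20.3, 40.2 and 115 CPM against 6.53, 8.49 and 13.8 CPM with no overlap (log2 fold change 2.52, and 1.71 without replicates 2 and 5), and *cebpb.L* rose by 2.79 and 1.61. The heparan sulfate carrier *sdc1.L*, also an epidermal gene, rose by 2.86 and 1.79.

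*csf3r.L* (chr2L:57163505-57198954), the G-CSF receptor that marks neutrophils, rose without any weight on replicates 2 and 5. It held 65.9, 95.7 and 126 CPM in rCSF1 and 26.5, 41.7 and 60.0 CPM in rctrl libraries, the groups did not overlap, and replicates 2 and 5 held 86.7 and 88.1 CPM. The log2 fold change was 1.21 ± 0.22 (adjusted p = 1.1e-04), and 1.27 (adjusted p = 0.0012) without them. The other defining neutrophil marker, myeloperoxidase, was not called, with 70.1, 267 and 669 CPM for *mpo.L* against 128, 292 and 491 CPM (log2 fold change 0.17 ± 0.40, adjusted p = 0.77) and -0.45 for *mpo.S* (adjusted p = 0.51). Of 28 neutrophil markers, 4 were higher and none lower (14.3% against 20.4% of all genes), and 2 without replicates 2 and 5.

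Macrophage markers gave no common direction, with 6 of 34 higher and 4 lower (17.6% and 11.8%, near the 20.4% and 14.1% of all genes). Without replicates 2 and 5 the counts were 3 and 1. Single libraries moved the lower count between 2 and 7, with 7 without rCSF1 replicate 1 and 2 without rCSF1 replicates 2, 5 or 6 or rctrl replicates 4 or 5. The phagosomal metal transporter *slc11a1.L* held 15.5, 28.8 and 137 CPM against 4.41, 5.37 and 7.97 CPM with no overlap (log2 fold change 3.22 ± 0.48, and 1.93, adjusted p = 0.0016, without replicates 2 and 5). The lysosomal acid phosphatase *acp5.L* rose by 1.17 (0.97 without them) and the macrophage transcription factor *mafb.S* by 0.84, with adjusted p = 0.09 without replicates 2 and 5. *siglec1.L*, the sialic acid receptor of tissue macrophages, fell, with 2.57, 4.38 and 13.9 CPM against 8.37, 31.5 and 76.1 CPM (log2 fold change -2.68 ± 0.53, adjusted p = 2.6e-04, and -2.36, adjusted p = 0.0089, without replicates 2 and 5). The ranges overlapped through rctrl replicate 5, at 8.37 CPM, and rCSF1 replicate 1, at 13.9 CPM. The summed level of the list was 3068 to 5658 CPM in rCSF1 and 2367 to 3589 CPM in rctrl libraries.

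In the NADPH oxidase list, which holds the enzymes that make superoxide in phagocytes and epithelia, 7 of 19 genes were higher and none lower (36.8% higher against 20.4% of all genes), and 3 without replicates 2 and 5 (15.8% against 7.22%). They included *noxo1.1.L*, *noxa1.L* (2.34, and 1.19 without them) and the GTPase *rac1.L*, which had no overlap (1.42 and 0.73). Of 37 prostanoid and leukotriene genes, 6 were higher and 7 lower (16.2% and 18.9%, against 20.4% and 14.1% of all genes). The lower count was 11 without rCSF1 replicate 1 or 3 and 4 without rCSF1 replicate 5. Without replicates 2 and 5, 1 was higher and 3 lower. Thromboxane synthase, *tbxas1.L*, rose by 2.58 (1.28 without them). The prostaglandin D synthase *hpgds.S* held 17.4, 35.3 and 76.0 CPM against 76.5, 89.0 and 99.1 CPM, with no overlap (log2 fold change -1.25 ± 0.24, and -0.94, adjusted p = 0.0033, without replicates 2 and 5), and *ltc4s.2.L*, a leukotriene C4 synthase, fell by 1.62 (1.31 without them).

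Interferon response genes were lower, and in the list mean replicates 2 and 5 were the exception. Of 30 tested, 2 were higher and 10 lower with all libraries (33.3% against 14.1% of all genes), and 1 higher and 17 lower without replicates 2 and 5 (against 5.69%). The difference of the list mean from the mean of the rctrl libraries, on the log2 scale, was -1.158 to -0.508 in replicates 1, 3, 4 and 6, and -0.072 and -0.015 in replicates 5 and 2. Single rctrl libraries ranged from -0.346 to 0.286.

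*irf7.L* (chr4L:25781592-25809919), the transcription factor that amplifies type I interferon, held 86.9, 113 and 126 CPM in rCSF1 and 172, 314 and 403 CPM in rctrl libraries with no overlap (log2 fold change -1.46 ± 0.30, adjusted p = 4.2e-04, and -1.44, adjusted p = 0.0075, without replicates 2 and 5). The DNA sensing adaptor *sting1.S* did not overlap either (-1.13, and -1.002 without them), and the antiviral enzyme *rsad2.S* held 1.49, 3.36 and 7.46 CPM against 5.95, 19.3 and 40.0 CPM (-2.43 and -2.29). In these genes replicates 2 and 5 were no exception. They held 93.7 and 110 CPM for *irf7.L*, 48.2 and 45.5 CPM for *sting1.S*, and 1.49 and 3.91 CPM for *rsad2.S*, within or below the other rCSF1 libraries. The interferon receptor chains *Ifnar1* (1.04, and 0.38 without replicates 2 and 5) and *IFNGR2* (0.83, and 0.48 with adjusted p = 0.084) were the 2 that were higher.

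Lymphocyte genes were lower in few cases. Of 24 T and NK cell markers, 2 were lower by edgeR and 5 by DESeq2, 9 were lower at an unadjusted p under 0.05, and none was higher by any of these. The 2 lower by edgeR were 8.33% of the list, below the 14.1% of all genes. Without replicates 2 and 5 edgeR called none, with 2 lower at an unadjusted p under 0.05. Single libraries moved the lower count from 2 to 12 (without rCSF1 replicate 3), 6 (without rctrl replicate 1), 5 and 4 (without rCSF1 replicates 4 and 1), 3 (without rctrl replicate 2 or 3) or 1 (without rCSF1 replicate 2, 5 or 6 or rctrl replicate 5). The summed level of the list was 74.3, 148 and 296 CPM in rCSF1 and 146, 265 and 402 CPM in rctrl libraries, and the mean of the list was lowest in rCSF1 replicates 2, 5 and 6, at -1.42, -1.69 and -1.499 from the rctrl mean on the log2 scale. The defining marker *cd3e.L* held 2.25, 4.79 and 8.402 CPM against 3.43, 9.14 and 12.96 CPM (log2 fold change -0.82, adjusted p = 0.069), and was called when rCSF1 replicate 3 or 4 or rctrl replicate 1 was left out (-0.977, -1.004 and -0.988). Of 12 B and plasma cell markers 1 was lower (4 without rCSF1 replicate 3, and none without rCSF1 replicate 2, 5 or 6 or rctrl replicate 6), and none without replicates 2 and 5, by edgeR or at an unadjusted p under 0.05. With all libraries 8.33% of that list were lower, again below the 14.1% of all genes. Of 15 antigen presentation genes, 1 was higher and 4 lower (1 lower without rCSF1 replicate 2 or 5, 2 without rCSF1 replicate 6, and none higher and 1 lower without replicates 2 and 5). The shares were 6.67% higher and 26.7% lower, against 20.4% and 14.1% of all genes. The class II chain *mhc2a.S* held 31.7, 110 and 192 CPM against 210, 243 and 310 CPM with no overlap (log2 fold change -1.24 ± 0.29, and -0.85, adjusted p = 0.011, without replicates 2 and 5). The polymeric immunoglobulin receptor *pigr.L*, which carries antibodies across epithelia, fell from 14.8, 41.0 and 71.9 CPM in rctrl to 5.00, 8.51 and 13.3 CPM in rCSF1 libraries without overlap (log2 fold change -2.23 ± 0.33, adjusted p = 1.8e-05, and -2.49, adjusted p = 3.1e-04, without replicates 2 and 5). Of 28 complement genes, 1 was higher and 2 lower (5 lower without rCSF1 replicate 1, and none and 1 without replicates 2 and 5), and the pore protein *c9.L* was lower in both comparisons (-0.86 and -0.87). The complement shares, 3.57% higher and 7.14% lower, were below those of all genes.

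With all 36 libraries in the fit, DNA replication and mitosis genes formed the most one-sided group among the lists. Of 76 tested, 61 were lower (80.3% against 14.1% of all genes) and none higher by edgeR, by DESeq2 or at an unadjusted p under 0.05. In the fit to the 12 libraries alone 36 were lower, 26 were lower without replicates 2 and 5 (against 5.69%), and for 17 all 6 rCSF1 libraries were below all 6 rctrl libraries. The median log2 fold change was -0.86, and -0.59 without replicates 2 and 5. Replicates 2 and 5 were lowest, with list means that differed from the rctrl mean by -1.84 and -1.66 on the log2 scale, against -0.804 to -0.213 in the other 4. Without replicates 2 and 5, 34.2% of this list were lower. Larger shares were then called in the interferon (56.7% lower), claudin (48.5% higher), basal epidermis (46.7% higher) and desmosome (44.8% higher) lists. The same was true of the 13 mitochondrial genome genes (38.5% lower).

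The kinetochore motor *cenpe.L* (chr1L:77811775-77871191) held 10.7, 17.0 and 21.5 CPM in rCSF1 and 37.5, 41.2 and 63.4 CPM in rctrl libraries with no overlap (log2 fold change -1.40 ± 0.19, adjusted p = 1.2e-05, and -1.27, adjusted p = 3.7e-04, without replicates 2 and 5). The spindle midzone genes *prc1.S* (-1.38, and -1.13 without them) and *kif23.S* (-0.94 and -0.90) were also below rctrl in all 6 libraries.

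Many cytosolic ribosomal protein genes were lower, and by less. Of 131 tested, 80 were lower (61.1%, against 14.1% of all genes) and none higher by edgeR, by DESeq2 or at an unadjusted p under 0.05. Leaving out 1 library at a time gave 57 to 111 lower, the 111 without rCSF1 replicate 1. The lower count was 30 in the fit to the 12 libraries alone and 29 without replicates 2 and 5, with a median log2 fold change of -0.56 (-0.41 without them). The large subunit stalk gene *rplp2.S* held 146, 167 and 185 CPM against 228, 307 and 381 CPM with no overlap (log2 fold change -0.91 ± 0.16, and -0.88, adjusted p = 0.0022, without replicates 2 and 5), and *rpl14.S* (-1.14, and -0.98 without them) and *rpl10a.S* (-1.06 and -0.88) fell with overlapping groups. The list mean of rCSF1 replicate 1 was 0.172 above the rctrl mean on the log2 scale, where single rctrl libraries ranged from -0.388 to 0.368. In rCSF1 replicates 2, 3, 4, 5 and 6 it differed by -1.015 to -0.484. The share of counts on ribosomal RNA genes, given above, was higher in all 6 rCSF1 libraries, and its part in these falls was not tested.

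Mesenchymal genes were lower in part, most of all in replicates 2 and 5. Of 27 fibroblast and mesenchymal markers, 11 were lower by edgeR (40.7% against 14.1%) and none higher, with 1 higher and 12 lower by DESeq2 and 1 and 13 at an unadjusted p under 0.05. The lower count was 5 without replicates 2 and 5. It was 7 when rCSF1 replicate 2, rCSF1 replicate 5 or rctrl replicate 6 alone was left out. The list mean differed from the rctrl mean by -1.68 and -1.46 on the log2 scale in replicates 2 and 5, and by -0.676 to 0.034 in the other 4. Single rctrl libraries ranged from -0.44 to 0.422. Within that range lay rCSF1 replicates 1, 3 and 4, at 0.034, -0.3 and -0.276.

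*cdh11.S* (chr4S:38377122-38458274), the cadherin of mesenchymal cells, held 9.89, 33.8 and 39.8 CPM in rCSF1 and 59.1, 84.3 and 113 CPM in rctrl libraries with no overlap (log2 fold change -1.58 ± 0.30, adjusted p = 1.5e-04, and -1.26, adjusted p = 0.0041, without replicates 2 and 5), and its copy *cdh11.L* did the same (-1.49 and -1.19). The PDGF receptor *pdgfrb.S* of pericytes and fibroblasts was below rctrl in all 6 libraries (-1.08, and -0.88 without replicates 2 and 5). For the defining marker *pdgfra.L* the log2 fold change was -1.07 ± 0.30 (adjusted p = 0.0067, and -0.76 with adjusted p = 0.085 without replicates 2 and 5). Of 35 PDGF and FGF genes, 1 was higher and 8 lower (5 lower without rCSF1 replicate 2, and 2 without replicates 2 and 5), including the ligand *pdgfa.S* (-0.91 and -0.66). The shares of that list were 2.86% higher and 22.9% lower, against 20.4% and 14.1% of all genes.

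None of 6 abundant fibrillar collagen genes of the dermis was called, and replicates 2 and 5 differed from the other rCSF1 libraries in them. *col1a1.L* held 428, 2396 and 4213 CPM in rCSF1 and 1482, 2154 and 2552 CPM in rctrl libraries (log2 fold change 0.11 ± 0.39, adjusted p = 0.86). Replicates 2 and 5 held 428 and 527 CPM, below all rctrl libraries, and replicates 1, 3, 4 and 6 held 2185 to 4213 CPM. The log2 fold change without replicates 2 and 5 was 0.55 (adjusted p = 0.28). Adjusted p was 0.66 for *col1a1.S*, 0.82 and 0.97 for *col1a2.L* and *col1a2.S*, and 0.099 and 0.44 for *col3a1.L* and *col3a1.S*. *col3a1.L* was called when rCSF1 replicate 4 was left out (log2 fold change -0.66 with all libraries and -0.82 without it), and its value without replicates 2 and 5 was -0.31 (adjusted p = 0.53). The standard error of these fold changes was 0.31 to 0.41 on the log2 scale. Differences of that size and larger could go uncalled, as the -0.66 of *col3a1.L* did with all libraries.

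Of 49 fibrillar collagen and interstitial matrix genes, 3 were higher and 6 lower (6.12% and 12.2%, against 20.4% and 14.1% of all genes). The lower count was 10 and 12 without rCSF1 replicates 1 and 4 in turn, and 3 without rCSF1 replicate 5. Without replicates 2 and 5, 2 were higher and 1 lower. The hyaluronan receptor *cd44.L*, which epidermal cells and leukocytes carry, held 226, 418 and 575 CPM against 147, 186 and 226 CPM with no overlap (log2 fold change 1.12 ± 0.17, and 0.97, adjusted p = 6.9e-04, without replicates 2 and 5), and the hyaluronan synthase *has3.L* rose by 3.32 (1.77 without them). Of 14 small leucine-rich proteoglycans, which space collagen fibrils, none was higher by edgeR, by DESeq2 or at an unadjusted p under 0.05, and 3 were lower (7 and 5 without rCSF1 replicates 1 and 4, and 2 without replicates 2 and 5). The 3 lower were 21.4% of that list, against 14.1% of all genes. Lumican fell in both copies, with 13.9, 118 and 257 CPM for *lum.L* against 235, 350 and 489 CPM (log2 fold change -1.56, and -1.06, adjusted p = 0.019, without replicates 2 and 5) and -1.52 for *lum.S* (-1.05 without them). Of 28 basement membrane genes, 6 were higher and 5 lower (21.4% and 17.9%, near the 20.4% and 14.1% of all genes). The lower count was 3 without rCSF1 replicate 2 or 5. Without both, 2 were higher and 3 lower. The epidermal laminin chains *lama3.L* (2.40, and 0.53 without replicates 2 and 5) and *lamb3.S* (2.19, and 0.54 with adjusted p = 0.31) rose, while nidogens *nid1.L* (-0.84 and -0.65) and *nid2.S* (-1.05 and -1.02) fell without overlap and the vascular laminin *lama4.L* had values of -1.39 and -1.05.

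Myofibroblast and smooth muscle genes gave 2 higher and 2 lower of 23 (4 lower without rCSF1 replicate 1, and 1 and 1 without replicates 2 and 5). The shares were 8.7% higher and 8.7% lower, against 20.4% and 14.1% of all genes. Smooth muscle actin, the marker of contractile myofibroblasts, was not called, with 5.33, 20.9 and 48.6 CPM for *acta2.L* against 14.1, 18.6 and 28.3 CPM (log2 fold change 0.36 ± 0.47, adjusted p = 0.59) and adjusted p = 0.81 for *acta2.S*. The cytoskeletal gene *smtn.L* was above rctrl in all 6 libraries (1.69, and 0.62 without replicates 2 and 5), and the collagen receptor *itga11.L* fell by 1.40 (1.10 without them). Of 46 TGF-beta pathway genes, 16 were higher and 7 lower (34.8% and 15.2%, against 20.4% and 14.1% of all genes). Without rCSF1 replicate 2, 10 were higher. The lower count was between 2 and 4 when rCSF1 replicate 2, 5 or 6 or rctrl replicate 3, 4 or 5 was left out. Without replicates 2 and 5, 1 was higher and 2 lower (2.17% and 4.35%, against 7.22% and 5.69% of all genes). *ltbp3.S*, which anchors latent TGF-beta in the matrix, held 270, 394 and 714 CPM against 134, 187 and 202 CPM with no overlap (log2 fold change 1.36, and 0.89, adjusted p = 0.042, without replicates 2 and 5).

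Matrix-degrading proteases were among the largest rises in replicates 2 and 5. Of 32 matrix metalloproteinase and TIMP genes, 10 were higher and 1 lower (31.2% and 3.12%, against 20.4% and 14.1% of all genes). Without replicates 2 and 5, 1 was higher and none lower, and the 3.12% higher was below the 7.22% of all genes. The lower count was 5 without rCSF1 replicate 1, 3 without rCSF1 replicate 3 or 4 or rctrl replicate 1, and 2 without rctrl replicate 2. The collagenase *mmp1.S* held 89.5, 477 and 6564 CPM in rCSF1 and 32.4, 62.3 and 90.6 CPM in rctrl libraries (log2 fold change 5.00 ± 1.14, adjusted p = 0.001), and 2.25 with adjusted p = 0.11 without replicates 2 and 5. *mmp13.S* (2.93, and 1.57 with adjusted p = 0.13) and the gelatinase *mmp9.2.L* (3.66, and 0.70 with adjusted p = 0.49) behaved likewise. The membrane-type protease *mmp14.L* was above rctrl in all 6 libraries, with 285 to 305 CPM in replicates 1, 3, 4 and 6 against 186 to 255 CPM (log2 fold change 0.52, adjusted p = 0.028, and 0.38, adjusted p = 0.24, without replicates 2 and 5), and *mmp9.1.S* had values of 0.96 and 0.86 (adjusted p = 0.10 without them). The gene called in both comparisons was *mmp28.L*, an epidermal metalloproteinase, with 38.8, 49.7 and 85.6 CPM against 22.7, 29.3 and 38.4 CPM and no overlap (log2 fold change 0.91 ± 0.19, and 0.61, adjusted p = 0.028, without them). Its copy *mmp28.S* was not called (5.33 to 23.8 CPM in rCSF1 against 9.09 to 21.3 CPM in rctrl libraries). A separate entry named *MMP14* was not called either (29.8 to 70.2 against 34.8 to 51.2 CPM). Of 23 plasminogen activation and clotting genes, 7 were higher and 3 lower, 1 and 1 without replicates 2 and 5. The lower count was 5 without rCSF1 replicate 1 and 1 without rCSF1 replicate 2 or 5 or rctrl replicate 3 or 6. The partners of the annexin A2 complex went opposite ways. *s100a10.L* rose (1.11, and 0.74 without replicates 2 and 5) and *anxa2.L* fell, with 243, 505 and 1007 CPM against 1030, 1272 and 1699 CPM (log2 fold change -1.25 ± 0.22, and -0.94, adjusted p = 0.0015, without them), each with no overlap.

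Wnt genes were called in both directions, with 12 of 68 higher and 8 lower (17.6% and 11.8%, near the 20.4% and 14.1% of all genes) and 5 and 5 without replicates 2 and 5. The lower count was 14 without rCSF1 replicate 1. The epidermal ligand *wnt7b.L* rose by 1.65 (0.74 without them). The Wnt antagonist *wif1.S* held 1.07, 4.01 and 5.52 CPM against 8.74, 10.2 and 20.2 CPM and *wnt11.L* held 3.63, 8.08 and 10.96 CPM against 13.7, 16.6 and 23.1 CPM, both with no overlap (log2 fold changes -1.76 and -1.21, and -1.36 and -0.92 without replicates 2 and 5). Among 23 Schwann cell and myelin genes, 2 were higher and 6 lower (8.7% and 26.1%), and 1 and 4 without replicates 2 and 5 (4.35% and 17.4%, against 7.22% and 5.69% of all genes). The nerve growth factor receptor *ngfr.S*, a marker of immature and repair Schwann cells, held 5.71, 9.51 and 11.4 CPM against 15.4, 19.5 and 45.0 CPM with no overlap (log2 fold change -1.43 ± 0.31, and -1.33, adjusted p = 0.012, without them), and myelin basic protein *mbp.L* was above rctrl in all 6 libraries (0.90 and 0.47).

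Of 35 endothelial markers, 3 were higher and 7 lower with all libraries, and 1 and none without replicates 2 and 5. The lower count fell to between 0 and 4 when rCSF1 replicate 2, 5 or 6 or rctrl replicate 1, 3, 5 or 6 was left out. The transcription factor *sox7.S* rose in both comparisons (2.13, and 1.503 with adjusted p = 0.035). The defining marker *cdh5.L* rose by 2.91 (1.18, adjusted p = 0.15, without replicates 2 and 5), with 11.6, 56.7 and 284 CPM against 6.96, 15.1 and 23.6 CPM, while *pecam1.L* (adjusted p = 0.34) and *pecam1.S* (adjusted p = 0.48) were not called. Red blood cell genes were lower in 5 of 22 cases (22.7%, against 14.1% of all genes) and in none without replicates 2 and 5. That count was 11 without rCSF1 replicate 3 and between 0 and 3 without rCSF1 replicate 2, 4, 5 or 6 or rctrl replicate 4 or 5. The summed level of the list was 88.7, 631 and 1734 CPM in rCSF1 and 891, 1390 and 2296 CPM in rctrl libraries. None of 32 skeletal muscle genes was called by edgeR or DESeq2, and none had an unadjusted p under 0.05, while 1 was lower in the fit to the 12 libraries alone. Their summed level was 40.0 to 74.3 CPM in rCSF1 and 36.6 to 113 CPM in rctrl libraries.

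Metabolic and stress genes rose in part. Of 43 glycolysis and hypoxia-response genes, 18 were higher and none lower (11 without rCSF1 replicate 2, 5 without replicates 2 and 5). The share higher was 41.9% against 20.4% of all genes, and 11.6% against 7.22% without replicates 2 and 5. The glucose transporter *slc2a1.L* held 16.1, 71.4 and 383 CPM against 9.25, 13.5 and 17.0 CPM (log2 fold change 3.41 ± 0.48, and 1.78, adjusted p = 6.2e-04, without them), and the vascular growth factor *vegfa.L* was above rctrl in all 6 libraries (1.86 and 0.70). Of 120 nuclear oxidative phosphorylation genes, 14 were higher and 30 lower (9 higher without rCSF1 replicate 2, 53 lower without rCSF1 replicate 1, and 2 and 12 without replicates 2 and 5). The complex I subunit *ndufa8.L* was below rctrl in all 6 libraries (-1.05, and -0.90 without replicates 2 and 5), while the complex II subunit *sdhc.S* (0.91 and 0.88) and the complex IV subunit *cox5b.1.L* (1.204 and 0.833) were above it.

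Endoplasmic reticulum chaperone and unfolded protein genes had 29 of 42 higher and 1 lower, with 15 and 18 higher without rCSF1 replicates 2 and 5 in turn and 7 higher and 3 lower without both. The shares were 69.0% and 2.38%, against 20.4% and 14.1% of all genes, and 16.7% and 7.14% without both, against 7.22% and 5.69%. List means of rCSF1 replicates 1, 3 and 6 differed from the rctrl mean by -0.243, 0.058 and 0.248 on the log2 scale, within the rctrl range of -0.258 to 0.364. The stress sensor *ern1.L* (1.33, and 0.65 without both) and the transcription factor *atf4.S* (1.22 and 0.47) were above rctrl in all 6 libraries. Of 27 oxidative stress genes 12 were higher and 1 lower (44.4% and 3.7%), and 3 and none without both (11.5% higher, against 7.22% of all genes). The master regulator *nfe2l2* rose in both copies, with no overlap for *nfe2l2.S* (0.92 and 0.68). Of 40 cholesterol genes 16 were higher and 1 lower (40.0% and 2.5%, against 20.4% and 14.1% of all genes). Without replicates 2 and 5, 3 were higher and none lower, and the 7.5% higher was near the 7.22% of all genes. The lipoprotein receptor *ldlr.L* (2.51 and 1.41) and the enzyme *fdps.S* (1.17 and 0.79) were higher in both comparisons, neither with overlap. The mitochondrial chaperonin *hspe1.S* fell without overlap (-1.30 and -1.18).

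The falls by size included genes that 1 control library decided. *bsk146.S*, *pygb.L* and *kif5c.L* had log2 fold changes of -5.46, -4.67 and -2.83. In *bsk146.S* rctrl replicate 5 held 52.5 CPM while the median of the rctrl libraries was 0.337 CPM, and without that library the log2 fold change was -1.19 (adjusted p = 0.59). In *pygb.L* and *kif5c.L* rctrl replicate 1 was the high library, and without it the values were -1.07 (adjusted p = 0.57) and -1.25 (adjusted p = 0.21). The falls that held in both comparisons were smaller. Besides those named above they included *lrrc69.L*, with 1.19, 2.83 and 3.16 CPM against 5.49, 18.5 and 29.7 CPM and no overlap (log2 fold change -2.91 ± 0.49, and -2.82, adjusted p = 0.0019, without replicates 2 and 5), the Notch target *hes5.1.L* (-2.73, and -2.30 without them), the collagen chain *col8a2.S* (-2.67 and -2.19), the lectin gene *fucolectinloc100491211.S* (-2.62 and -2.16), the cytoskeletal adducin *add2.L* (-2.52 and -2.30), the peptide hormone receptor *glp2r.S* (-2.16 and -1.88), the homeodomain protein *hopx.S* (-2.11 and -1.73) and the protease inhibitor *wfdc1.L* (-2.08 and -1.66).

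The same libraries were set against wounds given rIL34, the other ligand of CSF1R, at 7 dpw. Both cytokine groups were compared with the same rctrl libraries, so the direct contrast of rCSF1 with rIL34 is given. In it 2638 genes were higher (9.35%) and 2272 lower (8.05%) in rCSF1 wounds, and 818 and 936 without replicates 2 and 5. DNA replication and mitosis genes were lower in rCSF1 than in rIL34 wounds in 61 of 76 cases, and in 33 without replicates 2 and 5. Myofibroblast and smooth muscle genes were lower in 15 of 23 cases and in 4 without them, and keratins in 21 of 56 cases and in 5 without them. With all libraries *acta2.L* was at -1.67 on the log2 scale (adjusted p = 0.017). It held 5.33 and 7.33 CPM in rCSF1 replicates 2 and 5, and 12.9 to 48.6 CPM in rCSF1 replicates 1, 3, 4 and 6. Of the NF-kB genes 20 of 48 were higher than in rIL34 wounds, and 3 without replicates 2 and 5. With all libraries, *il1b.L* was higher by 4.38 (adjusted p = 3.1e-04), *krt17.L* by 2.30 (adjusted p = 3.3e-04), *cldn7.L* by 1.85 (adjusted p = 0.0042) and *csf3r.L* by 0.75 (adjusted p = 0.016). The junction lists were split. Of 33 claudin and tight junction genes, 5 were higher and 4 lower than in rIL34 wounds, and 1 and 1 without replicates 2 and 5. Of 29 desmosome and adherens junction genes, 5 were higher and 6 lower, and 1 and 3 without them. *jup.L*, at 406, 668 and 781 CPM in rIL34 libraries, was not called in the direct contrast (0.12, adjusted p = 0.79), nor were *irf7.L* (-0.55, adjusted p = 0.20) and *rplp2.S* (-0.01, adjusted p = 0.98). For the interferon list 2 genes were higher and 1 lower than in rIL34 wounds, and for the ribosomal protein list none and 6.

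**Figure D5:**
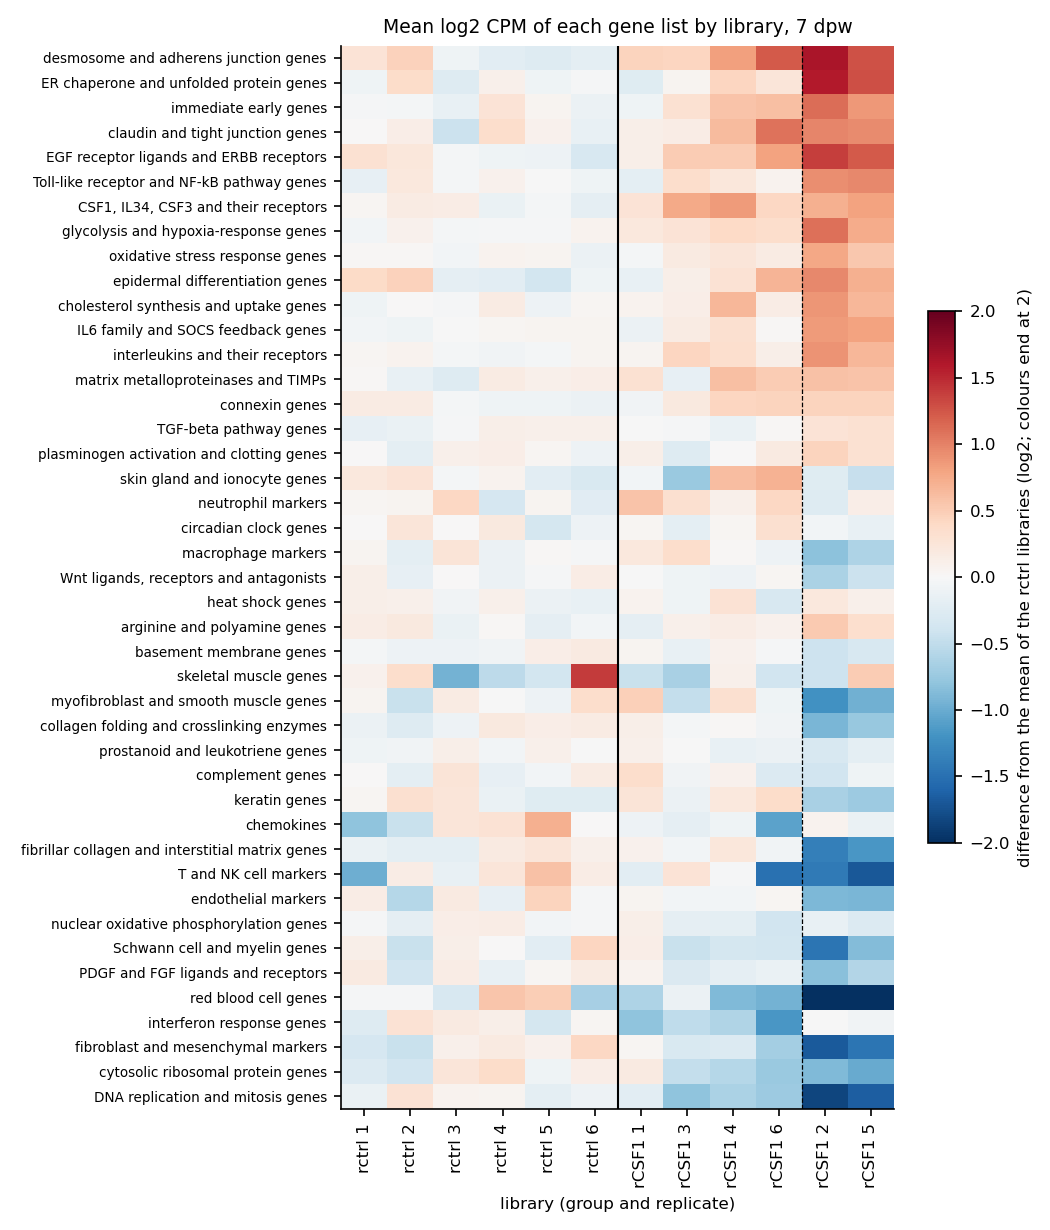
Mean log2 CPM of 43 gene lists in the 12 libraries, as the difference from the mean of the 6 rctrl libraries (red higher, blue lower, colours end at a difference of 2). The solid line separates rctrl from rCSF1 libraries and the dashed line sets rCSF1 replicates 2 and 5 apart on the right. The desmosome and claudin lists are above the rctrl mean in all 6 rCSF1 libraries, the interferon list is below it mainly in replicates 1, 3, 4 and 6, and the fibroblast list is lowest in replicates 2 and 5.

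Both copies of a gene often moved together. Of 6631 pairs with both copies tested, 1128 had both copies higher and 438 both lower, 2058 had 1 copy called, 54 had the copies called in opposite directions and 2953 had neither called. Where the L copy was higher, the S copy was higher in 61.8% of pairs, against 24.8% of all S copies. The activin inhibitor follistatin was among the opposite pairs, with *fst.S* at 2.95 (0.51, adjusted p = 0.56, without replicates 2 and 5) and *fst.L* at -1.13 (-1.08, adjusted p = 0.037, without them), and so was VE-cadherin, with *cdh5.L* at 2.91 and *cdh5.S* at -0.83 (adjusted p = 0.047, and 0.28 without replicates 2 and 5). The call of *cdh5.S* was lost in 7 of the 12 comparisons that left out 1 library, those without rCSF1 replicate 2, 3 or 5 or rctrl replicate 1, 3, 5 or 6, with values from -0.88 to -0.61. Among classes of genes, 12 of 17 ribosomal RNA genes were higher, and of 1382 long noncoding RNA genes 59 were higher (4.27%) and 167 lower (12.1%), against 21.5% and 14.3% of 25789 protein-coding genes.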

How the data were processed

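RNA was extracted from skin wounds, depleted of ribosomal RNA and made into strand-specific paired-end libraries. One label field names polyA RNA as the molecule, while the protocol describes rRNA depletion. Per the study's methods, the authors trimmed reads with fastp, aligned them with minimap2 (version 2.29 per the submitters' processing notes), sorted them with SAMtools (1.16.1) and deposited raw counts, made with featureCounts (2.1.1) as read pairs with both ends mapped over the exons of the RefSeq annotation of Xenopus_laevis_v10.1. The counting parameters given name no strand option, so that counts of overlapping or antisense genes cannot be told apart. The table held 42675 rows, of which 1 was blank and 417 named no gene. Those rows, with 0.628% to 2.08% of counts per library, were left out of library sizes and tests, and 42257 rows were kept. Of these, 38707 matched a RefSeq symbol, and 122 symbols stood on 318 rows, which were kept apart. Total counts of the 36 libraries ranged from 22435798 to 34868292.

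Counts were tested with edgeR 4.0.16 in R 4.3.3 (TMM scaling, estimateDisp, glmQLFit and glmQLFTest with default settings) in 1 model of the 6 groups of the series, which share 1 estimate of the spread. Genes with at least 0.5 CPM in at least 10 libraries were kept (28225), and p-values were adjusted by Benjamini-Hochberg. The standard error of a log2 fold change was taken from its F statistic. Shares of counts were compared by an exact two-sided permutation test over 6 against 6 libraries. In a test on simulated data for this comparison over 28059 genes, 45.9% of 98 genes simulated with a log2 difference of 1 and 92% of 100 genes with a difference of 2 were recovered, and 3 unchanged genes were called. These rates hold for the simulated data only. They were not checked for a group whose libraries lie as far apart as the rCSF1 libraries do.

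The libraries compared and the 52 gene lists were chosen with earlier results of these data known, and so was the choice to leave out rCSF1 replicates 2 and 5. Lists are described by counts, with no test. Named genes (325, of which 263 were called) were the 15 largest rises and falls called with and without replicates 2 and 5, the largest regardless of these, up to 3 called members of each list in each direction, ranked by p, and defining cell type markers. A few genes that this rule names are not reported here. The alternatives were DESeq2 1.42.0, other scaling and filters, fits to 12 or 18 libraries, the replicate number as a block, limma 3.58.1 voom with quality weights, summed L and S copies, and 12 comparisons that left out 1 library each. No sequence is printed because the reference tables used here held none.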

Additional observations from a re-analysis of the deposited data

Results flagged for a closer look

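Dixon's ratio of the gap to the range was computed in each group of 6 libraries for 760 values, those of the named genes and of the list means. Of these, 25 passed the critical value for 6 samples. The ratios of genes were taken on the log2 scale, while their levels are printed below as CPM. Chance alone takes about 1 in 20 groups past it, and the 25 of 760 were fewer than that share.

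In rCSF1 wounds, replicate 6 stood apart at the low end for *rtp3a.2.L* (12.4 CPM, the others 32.4 to 57.3) and the mean log2 CPM of the chemokine list (2.37, the others 3.25 to 3.50). Replicate 1 was low for *il17rd.S* (13.6 CPM) and high for *kif23.S* (9.13 CPM) and *ndufb5.L* (15.2 CPM). Replicate 4 was high for *fst.L* (7.24 CPM) and replicate 2 low for *ngfr.S* (5.71 CPM). Replicates 2 and 5 lay together on the log2 scale for most genes, and apart from *ngfr.S* neither gave a gap of its own.

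In rctrl wounds, single libraries stood high for *bsk146.S* (52.5 CPM, replicate 5), *pygb.L* (30.4 CPM, replicate 1), *acp5.L* (38.9 CPM, replicate 5), *cenpe.L* (63.3 CPM, replicate 2) and *arntl.L* (16.2 CPM, replicate 1). Replicate 2 stood low for *gja1.L* (8.37 CPM), *pdgfb.S* (3.39 CPM), *hspe1.S* (10.6 CPM), *dpt.S* (14.6 CPM), *pecam1.L* (2.19 CPM) and *myh11.S* (31.7 CPM). Replicate 3 stood low for *mmp1.L* (0.12 CPM), *il10rb.L* (3.28 CPM), *gja7.S* (16.3 CPM), *plod3.L* (36.7 CPM) and *pgla.L* (146 CPM). The low libraries for *slc4a1.S* (4.31 CPM) and *cd3e.S* (1.19 CPM) were replicates 6 and 1.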

How the results depend on the processing

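Calls of both directions were fewest without rCSF1 replicates 2 and 5, at 2034 higher and 1601 lower than in rctrl and 818 higher and 936 lower than in rIL34 wounds, against 5766, 3982, 2638 and 2272 with all libraries. Counts of higher genes were 3401 in the fit to the 12 libraries and 3563 with limma voom quality weights, and counts of lower genes 1695 in the fit to 12 libraries and 2231 in the fit to the 18 libraries of 7 dpw. The cause was not tested. Leaving out 1 library at a time gave 3973 to 6180 higher and 2678 to 5723 lower genes. DESeq2 (6048 and 4516), RLE size factors, both other filters and summed copies kept both counts within 1.5 times. The mitochondrial share differed by -0.659 percentage points without replicates 2 and 5 (exact permutation p = 0.057). Replicate numbers did not pair the samples, since deviations of samples with 1 number correlated at -0.207 to 0.19 and only 2 of 6 matched their own number best. With the replicate number as a block, 5491 genes were higher and 4072 lower. Of the 263 named genes called, 0 were lost with DESeq2, 63 in the fit to 12 libraries, 50 in the fit to 18, 68 with voom weights, 7 with the block and 1 to 42 without 1 library. With copies summed 24 were lost, and the value of the gene turned for *socs4.S* (0.23), *c5ar1.S* (0.17), *fst.S* (-0.16) and *cdh5.S* (2.33), where the summed value holds the other copy too. The planned description of promoter motifs was not run, since no promoter sequences were in the reference used here. Depth limits genes near the 0.5 CPM filter.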

Other observations

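Most of the remaining gene lists held few calls without replicates 2 and 5, and the mitochondrial genome list was an exception. Of 41 IL6 family and SOCS feedback genes, 18 were higher and 3 lower (43.9% and 7.32%, against 20.4% and 14.1% of all genes). Without replicates 2 and 5 the counts were 3 and 3 (7.32% each, against 7.22% and 5.69%). The cytokine signalling inhibitors *socs7.S*, with 15.4, 20.6 and 33.9 CPM against 11.7, 13.3 and 14.3 CPM and no overlap (log2 fold change 0.82, and 0.53 without replicates 2 and 5), and *cish.S* (2.18 and 1.34) rose. Of 42 collagen folding and crosslinking enzymes, 4 were higher and 4 lower (9.52% each, against 20.4% and 14.1% of all genes), and 2 and none without replicates 2 and 5. The lower count ran from 0 to 10 when 1 library was left out. The lysyl hydroxylase *plod3.L* held 71.2, 112 and 199 CPM against 36.7, 55.0 and 58.9 CPM and the collagen glycosyltransferase *colgalt1.L* held 20.3, 22.5 and 24.5 CPM against 13.2, 15.1 and 18.1 CPM, both with no overlap (log2 fold changes 1.29 and 0.53, and 0.83 and 0.45 without replicates 2 and 5).

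Of 20 heat shock genes 4 were higher and 3 lower (1 and 2 without replicates 2 and 5). The co-chaperone *dnajb1.L* rose by 1.33 (0.88 without replicates 2 and 5), and both copies of the mitochondrial chaperonin gene *hspe1* fell. Of 27 arginine and polyamine genes, 5 were higher and 4 lower (18.5% and 14.8%, also near the shares of all genes). They were called in neither direction by edgeR without replicates 2 and 5, with 2 lower at an unadjusted p under 0.05. The arginine synthesis enzyme *ass1.S* held 17.13, 103 and 1578 CPM against 12.4, 19.6 and 129 CPM (log2 fold change 3.67, and 0.83 with adjusted p = 0.38 without them). Of 30 circadian clock genes 4 were higher (1 without rCSF1 replicate 2, 2 without rCSF1 replicate 5, and none higher and 1 lower without both), of 18 pigment cell genes 1 was higher and 3 lower (1 and 1 without both), and of 13 mitochondrial genome genes 5 were lower with all libraries and without replicates 2 and 5 (2 without rCSF1 replicate 3 or rctrl replicate 5). The clock share was 13.3% higher, and the pigment cell shares 5.56% higher and 16.7% lower. Of the mitochondrial genome genes 38.5% were lower in each comparison, against 14.1% and 5.69% of all genes. Among the last, *ATP6* had a log2 fold change of -0.62 (-0.67 without replicates 2 and 5).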
